A study of Mus musculus with 24 samples.

Results

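The genes described here are 10 genes for plasma proteins of the acute phase response, chosen by name from the 55421 genes of the count and FPKM tables. They were the serum amyloid A genes Saa1, Saa2, Saa3 and Saa4, the orosomucoid genes Orm1 and Orm2, and Lcn2, Hp, Hpx and Apcs. The choice was made with the values of HFD + eRapa against ND + veh already known, so for these 10 genes that comparison is given below as a description with no test. All 10 genes passed the filter on low counts, as did 13847 genes in total.

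RNA was sequenced from hepatocytes of old male C57BL/6J mice, isolated by a perfusion in 2 steps, with 1 library for each mouse. The ND + veh group (8 mice) stayed on normal diet with vehicle, the HFD + veh group (7 mice) received vehicle with a diet that took 60% of its calories from fat, and the HFD + eRapa group (9 mice) received that fatty diet with encapsulated rapamycin at 42 ppm. Vehicle or rapamycin began at 4 months of age, on normal diet, and the change of diet came at 18 months and lasted 9 weeks. No mice given rapamycin on normal diet were analysed here, so what the drug does alone and what it does together with the fatty diet cannot be told apart.

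The acute phase response is the change in the plasma proteins that the liver secretes after infection, injury or other inflammation. Macrophages, among them the Kupffer cells of the liver, release IL-6, IL-1 and TNF, which act on hepatocytes through STAT3, C/EBP factors and NF-kB and raise the transcription of the positive acute phase genes while negative acute phase genes such as albumin fall. In the mouse, serum amyloid A 1 and 2, which travel on high density lipoprotein, and serum amyloid P component (Apcs) are classical members, and haptoglobin (Hp) and hemopexin (Hpx) clear hemoglobin and heme from plasma.

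The libraries held 17739252 to 25945134 counts each, of which the 10 genes took 0.499% to 1.62% and mitochondrial genes 4.38% to 10.7%. The markers of the labelled cell type were high, as 8 hepatocyte genes (Apob, Cps1, Tat, Ass1, Cyp2e1, Hnf4a, Pck1 and Tdo2) summed to between 11887 and 31246 CPM (counts scaled by library size) in every library. Other liver cells contributed RNA as well. The summed CPM of 12 macrophage genes ran from 52.4 to 1569 in ND + veh, from 198 to 5886 in HFD + veh and from 19.4 to 1230 in HFD + eRapa. HFD + eRapa replicate 2 stood apart from its group in 5 of the genes described here (Saa1, Saa2, Orm1, Orm2 and Hpx), and results that rest on it are given with and without it.

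The Saa genes lie side by side on chromosome 7 within 42316 bases (GRCm38, GENCODE M21), with Saa1 at chr7:46740497-46742980 on the minus strand and Saa2 at chr7:46751790-46754313 on the plus strand, head to head and 8809 bases apart. Their coding sequences were identical at 348 of 366 bases (95.1%), against 74.3% for Saa1 and Saa3 and 64.4% for Saa1 and Saa4, so the counting could have split reads between Saa1 and Saa2 and the sum of both was analysed beside each. The Orm genes lie on chromosome 4 within 21319 bases, with coding identities of 89.9% for Orm1 and Orm2, 86.0% for Orm1 and Orm3 and 87.9% for Orm2 and Orm3, so their separate values carry the same doubt. With all mice, the group medians of Saa1 and Saa2 had the same order whereas those of Orm2 and Orm3 did not. The promoters of these close copies are printed for that reason. The difference in order between Orm2 and Orm3 rested on HFD + eRapa replicate 2. Without that mouse the HFD + eRapa median of Orm2 was 23.1 CPM, under its HFD + veh median of 27.4, and both genes had the same order. The sequences are from RefSeq (GRCm38.p6), stop before the annotated gene (which leaves 207 of 250 bases for Saa2) and run 5′ to 3′ on the gene's own strand. Capitals mark matches to the C/EBP letters TTNNGNAA on either strand. The Saa1 sequence is chr7:46742981-46743230 (minus), Saa2 chr7:46751583-46751789 (plus), Orm2 chr4:63362199-63362448 (plus) and Orm3 chr4:63355908-63356157 (plus).
Saa1: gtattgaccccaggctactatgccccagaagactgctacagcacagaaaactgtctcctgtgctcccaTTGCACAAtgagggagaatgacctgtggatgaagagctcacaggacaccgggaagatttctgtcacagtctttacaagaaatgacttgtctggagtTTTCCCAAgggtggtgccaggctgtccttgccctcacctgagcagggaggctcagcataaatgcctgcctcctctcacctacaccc
Saa2: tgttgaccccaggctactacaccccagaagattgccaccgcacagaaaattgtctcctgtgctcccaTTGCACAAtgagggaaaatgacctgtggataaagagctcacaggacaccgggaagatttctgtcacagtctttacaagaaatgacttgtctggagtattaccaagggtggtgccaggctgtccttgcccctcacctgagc
Orm2: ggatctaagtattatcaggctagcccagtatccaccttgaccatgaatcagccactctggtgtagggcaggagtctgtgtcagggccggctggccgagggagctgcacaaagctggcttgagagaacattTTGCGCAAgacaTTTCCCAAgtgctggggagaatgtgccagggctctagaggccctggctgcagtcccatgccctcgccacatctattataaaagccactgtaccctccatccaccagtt
Orm3: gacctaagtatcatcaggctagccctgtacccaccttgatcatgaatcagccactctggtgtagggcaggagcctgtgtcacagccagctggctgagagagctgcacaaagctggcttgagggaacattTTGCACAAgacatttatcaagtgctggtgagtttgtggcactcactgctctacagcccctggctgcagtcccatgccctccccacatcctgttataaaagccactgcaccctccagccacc

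The 250 bases before the RefSeq start were identical between Saa1 and Saa2 at 238 positions (95.2%) and between Orm2 and Orm3 at 218 positions (87.2%). Saa1 and Saa2 shared the match TTGCACAA, which lay 182 bases before the start in Saa1 and 183 bases before it in Saa2. Saa1 held a further match, TTTCCCAA, 86 bases before the start. Orm2 held TTGCGCAA 120 bases before the start and TTTCCCAA 108 bases before it, and Orm3 held TTGCACAA 121 bases before it.

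Among the 10 genes 8 had a promoter entry (Orm1 and Hp had none). The C/EBP letters were found in 7 of these 8 windows and in 36.8% of 32851 promoter windows of the same length, the STAT letters TTCNNNGAA in 1 of 8 (Apcs) and in 7.02% of all windows, and the NF-kB letters GGGNNTTTC in 0 of 8 and in 3.72% of all windows. The Lcn2 window, 1 of the 7, lay wholly within the annotated gene. The Saa1 and Saa2 windows were 95.2% identical, so the 7 are not separate observations. Both strands were searched, and no window of the 8 held matches to more than 1 of these 3 sets of letters. A match is a description of the letters and not evidence of binding. The NF-kB letters are only the first letters of 1 form of its site. Other forms were not searched, so 0 of 8 does not show that such sites are absent.

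Per unit of transcript length the 10 genes covered a wide range of levels. In ND + veh the mean FPKM was 2502 for Hpx, 2055 for Hp, 808 for Orm1, 105 for Apcs, 79.96 for Saa4, 51.1 for Saa1, 24.1 for Saa2, 15.4 for Orm2, 10.6 for Lcn2 and 7.20 for Saa3. The order changed in HFD + veh, where Saa1 (172) stood above Saa4 (121) and Apcs (117) in mean FPKM. In HFD + eRapa the mean FPKM of Hp (3690) was above that of Hpx (3202).

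The first comparison asks what the fatty diet did in old mice given vehicle. In HFD + veh against ND + veh 9 of the 10 genes rose at an adjusted p under 0.05 and none fell (edgeR quasi-likelihood test, Benjamini-Hochberg over all genes tested). The rises ran from 1.54-fold for Orm1 and 1.56-fold for Saa4 to 3.88-fold for Saa2 and 8.85-fold for Lcn2, and Apcs did not pass the test. Of all genes tested 25.9% passed in this comparison, 16% as higher and 9.86% as lower. The median log2 fold change was 1.02 over the 10 genes and 0.05 over all genes. The ND + veh mice also serve as the reference of the comparison known at the choice of genes, so the count is not independent evidence of the direction. It fell to 5 without ND + veh replicate 1, without HFD + veh replicate 6, or with no filter on low counts, and Saa2, Saa4, Lcn2, Hp and Hpx kept their calls whichever library was left out.

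The second comparison asks what rapamycin changed on the fatty diet. In HFD + eRapa against HFD + veh 1 of the 10 genes passed the test, Saa1, which was 2.62-fold higher with an adjusted p of 0.0496 (edgeR). Of all genes tested 32% passed, 10.9% as higher and 21.1% as lower. The median log2 fold change was 0.01 over the 10 genes and -0.04 over all genes. The Saa1 call was lost without HFD + eRapa replicate 2 (log2 fold change 0.30, adjusted p = 0.400), and it held in 10 of 24 fits that left out 1 library and in 1 of 8 other settings. Without that mouse 2 genes passed instead, both lower in HFD + eRapa: Orm1 (log2 fold change -0.58, adjusted p = 0.00785) and Hpx (-0.72, adjusted p = 0.00362). The HFD + eRapa mice also belong to the comparison known at the choice of genes, so the Saa1 call is not independent evidence of a rise. The HFD + veh mice are those of the first comparison, so the values of both are given side by side and no overlap between them is read. No gene of the 10 had groups without overlap here, where 2.59% of all genes tested did, 1.29% as higher and 1.29% as lower.

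The third set of values describes HFD + eRapa beside ND + veh. With all 9 mice, log2 fold changes were positive for all 10 genes, from 0.21 for Apcs and 0.30 for Orm1 to 2.79 for Lcn2, 3.04 for Saa2 and 3.14 for Saa1. Without HFD + eRapa replicate 2 they were 2.05 for Saa1, 2.41 for Saa2, 1.53 for Orm2, 0.04 for Orm1 and -0.02 for Apcs. No test is given for the 10 genes in this comparison. Of all genes tested 13.5% passed an adjusted p of 0.05, 6.93% as higher and 6.54% as lower. For Saa1, Saa2 and Hp all HFD + eRapa mice lay above all ND + veh mice, where 3.37% of all genes tested had no overlap, 2.14% as higher and 1.23% as lower. Since the genes were chosen with these values known, nothing is read from this lack of overlap.

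**Figure D1:**
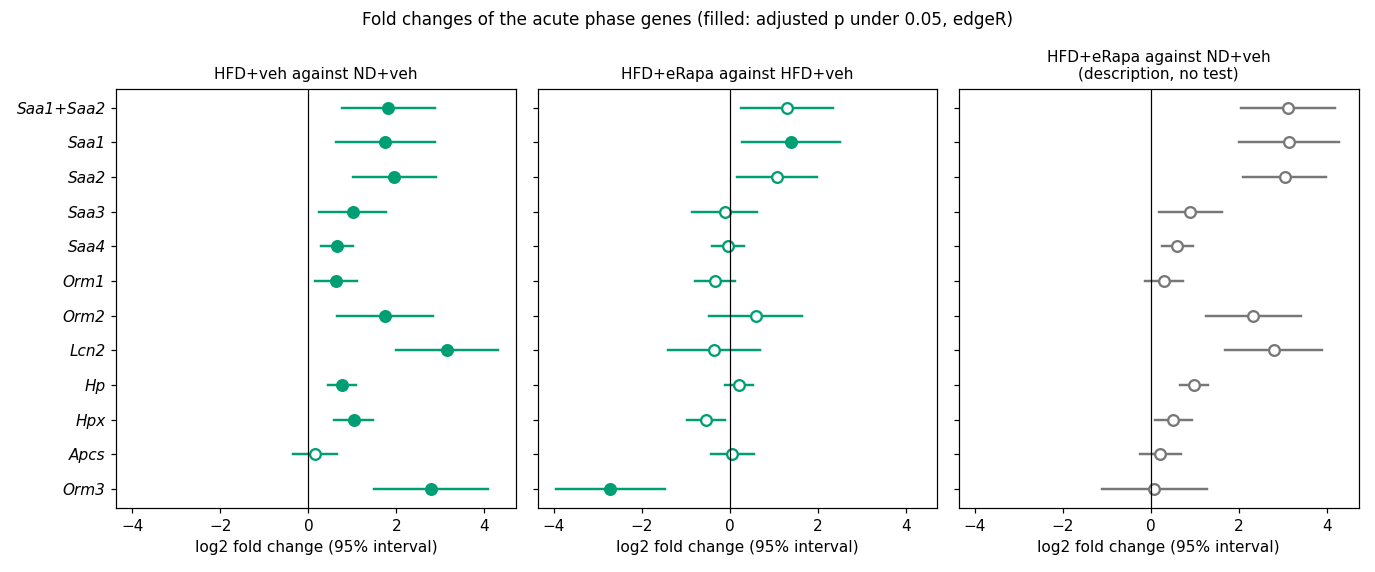
Log2 fold changes (x axis, point) with 95% intervals (line) from the edgeR fit for Saa1 and Saa2 summed, the 10 acute phase genes and Orm3, in the 3 comparisons. Filled points passed an adjusted p of 0.05 and the third panel carries no test. Lcn2 had the largest fold change of the 10 genes in HFD + veh against ND + veh (3.15), and Orm3 fell by 2.71 in HFD + eRapa against HFD + veh.

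Saa1 and Saa2 encode the inducible serum amyloid A proteins of plasma. Saa1 lay between 6.58 and 38.7 CPM in ND + veh (median 19.5), between 27.1 and 99.3 in HFD + veh (median 64.9) and between 59.9 and 957 in HFD + eRapa (median 88.6). The ND + veh and HFD + veh ranges overlapped through ND + veh replicate 8, the highest of its group, and HFD + veh replicate 2, the lowest of its group. All 9 HFD + eRapa mice lay above all 8 ND + veh mice. The highest value came from HFD + eRapa replicate 2, at 11.1 times the median of the other 8, whose mean was 85.7 ± 20.5 CPM (SD, n = 8). Saa1 rose 3.36-fold in HFD + veh against ND + veh (log2 fold change 1.75, SE 0.540, adjusted p = 0.0224), a call that was lost without ND + veh replicate 1 or HFD + veh replicate 6.

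Saa2 ran from 1.87 to 16.1 CPM in ND + veh (median 7.98), from 10.5 to 52.1 in HFD + veh (median 35.7) and from 28.5 to 268 in HFD + eRapa (median 46.1). The pattern across mice was that of Saa1, with the same mouse on top of each of the ND + veh and HFD + eRapa groups. The rise on the fatty diet was 3.88-fold (log2 fold change 1.95, SE 0.455, adjusted p = 0.00508). Against HFD + veh, HFD + eRapa differed by a log2 fold change of 1.08 (95% interval 0.17 to 1.99, adjusted p = 0.0631), and by 0.46 without HFD + eRapa replicate 2 (adjusted p = 0.261).

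Summed over both copies, the level was 8.46 to 54.8 CPM in ND + veh (median 26.8), 37.7 to 148 in HFD + veh (median 100.6) and 88.4 to 1225 in HFD + eRapa (median 132). Of the 7 HFD + veh mice 6 lay above the highest ND + veh mouse, and 3 of the 9 HFD + eRapa mice lay above the highest HFD + veh mouse. The sum rose 3.51-fold on the fatty diet (log2 fold change 1.81, SE 0.512, adjusted p = 0.0148) and kept that call whichever library was left out. Between HFD + eRapa and HFD + veh it differed by 1.30 (95% interval 0.25 to 2.34, adjusted p = 0.0521), and by 0.35 without HFD + eRapa replicate 2 (adjusted p = 0.340). As a description, HFD + eRapa stood 3.11 above ND + veh on the log2 scale, and 2.17 above it without that mouse. Saa2 made up a median of 29.9% of the summed counts in ND + veh, 30.8% in HFD + veh and 34.2% in HFD + eRapa. The share in HFD + eRapa replicate 2 was 21.9%, the lowest of its group.

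**Figure D2:**
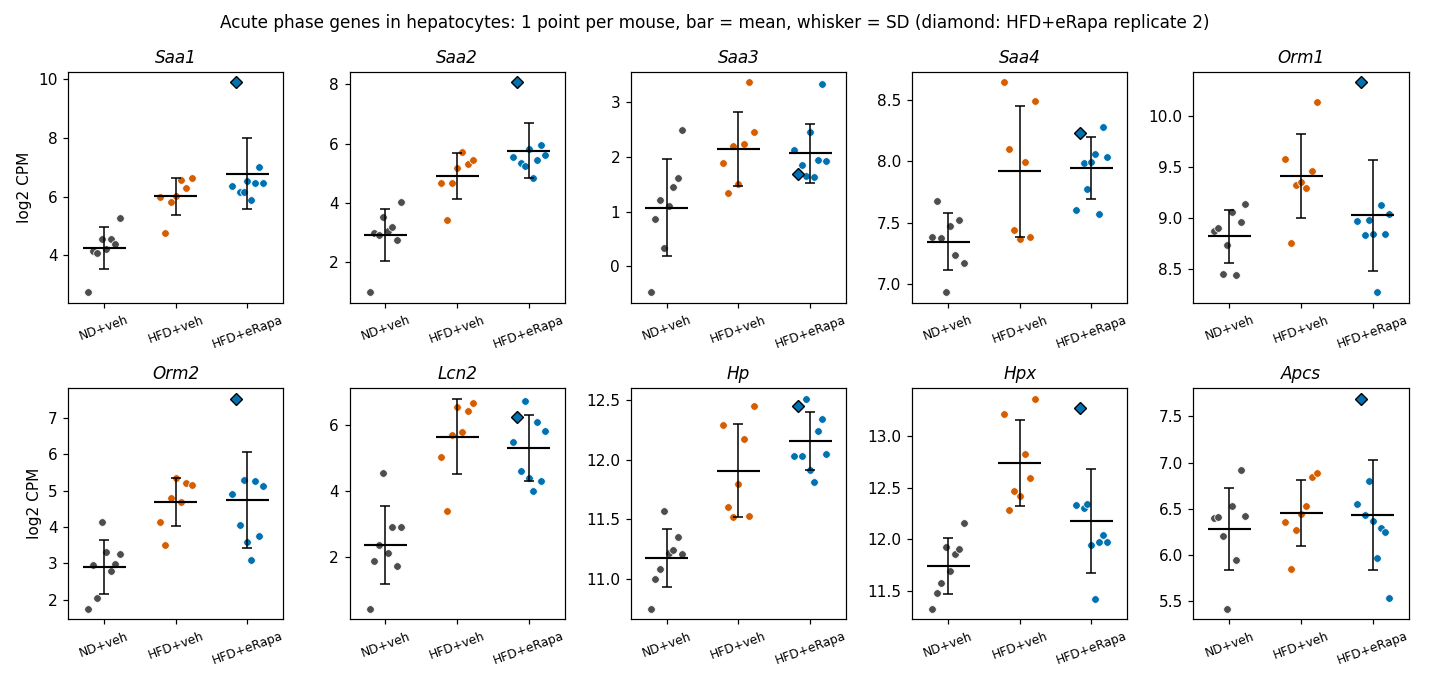
Log2 CPM (y axis) of each of the 10 genes in every mouse, with 1 point per mouse, the mean as a bar and the SD as a whisker, for ND+veh (8 mice), HFD+veh (7 mice) and HFD+eRapa (9 mice). The diamond is HFD+eRapa replicate 2, which sits far above the other HFD+eRapa mice for Saa1, Saa2, Orm1, Orm2 and Hpx but not for Saa3, Saa4 or Hp.

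Saa3, a serum amyloid A that macrophages and fat tissue also make, had the lowest mean FPKM of the 10 genes in every group. It ran from 0.624 to 5.55 CPM in ND + veh (median 2.15), from 2.42 to 10.2 in HFD + veh (median 4.503) and from 2.98 to 9.89 in HFD + eRapa (median 3.69). HFD + veh replicate 6 held the highest value, 10.2 CPM, and also the highest macrophage, neutrophil, lymphocyte and erythroid sums of all libraries. The groups overlapped, and the rise on the fatty diet (2.02-fold, adjusted p = 0.0453) was kept in 8 of 24 fits with 1 library left out. Without HFD + veh replicate 6 the log2 fold change was 0.67 (adjusted p = 0.188). HFD + eRapa and HFD + veh differed by -0.12 (95% interval -0.85 to 0.62).

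Saa4, the serum amyloid A that the liver makes constitutively, ran from 122 to 204 CPM in ND + veh (median 166), from 165 to 399 in HFD + veh (median 255) and from 190 to 309 in HFD + eRapa (median 254). In HFD + eRapa 7 of 9 mice lay above the highest ND + veh mouse, and in HFD + veh 4 of 7 did. Saa4 rose 1.56-fold on the fatty diet (log2 fold change 0.64, SE 0.176, adjusted p = 0.0126). Between HFD + eRapa and HFD + veh it differed by -0.04 (95% interval -0.39 to 0.32, adjusted p = 0.889), and its direction there turned with single libraries.

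Orosomucoid, or alpha-1-acid glycoprotein, is a plasma carrier of drugs and lipids. Orm1 held most of the counts of the 3 mouse genes, with a median share of 98.3% in ND + veh, 95.4% in HFD + veh and 94.1% in HFD + eRapa. It ran from 347 to 562 CPM in ND + veh (median 475), from 432 to 1128 in HFD + veh (median 654) and from 309 to 1286 in HFD + eRapa (median 501). In HFD + veh 6 of 7 mice lay above the highest ND + veh mouse, and HFD + veh replicate 2 lay among the ND + veh mice. Orm1 rose 1.54-fold on the fatty diet (log2 fold change 0.63, SE 0.226, adjusted p = 0.0434), a call kept in 10 of 24 fits with 1 library left out. In HFD + eRapa 8 of 9 mice lay under the HFD + veh median, the exception being replicate 2 (1286 CPM). The log2 fold change was -0.33 (95% interval -0.78 to 0.12, adjusted p = 0.258) with that mouse and -0.58 without it, as given above.

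Orm2 had a far lower mean FPKM than Orm1 and a larger fold change on the fatty diet. It ran from 3.29 to 17.4 CPM in ND + veh (median 7.73), from 11.2 to 40.4 in HFD + veh (median 27.4) and from 8.45 to 184 in HFD + eRapa (median 29.9). On the fatty diet 6 of 7 mice lay above the highest ND + veh mouse, replicate 4. Orm2 rose 3.34-fold (log2 fold change 1.74, SE 0.529, adjusted p = 0.0211), and the call was lost without ND + veh replicate 1 or HFD + veh replicate 6. HFD + eRapa differed from HFD + veh by 0.59 (95% interval -0.46 to 1.64, adjusted p = 0.395), and by -0.21 without HFD + eRapa replicate 2 (adjusted p = 0.689).

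Orm3, the remaining orosomucoid gene and not among the 10, had another order of group medians than Orm2 when all mice were used. Without HFD + eRapa replicate 2 the HFD + eRapa median of Orm2 was 23.1 CPM, and both genes had the same order. Orm3 ran from 0.284 to 6.86 CPM in ND + veh (median 0.572), from 2.82 to 17.2 in HFD + veh (median 11.3) and from 0.338 to 3.97 in HFD + eRapa (median 1.13). Of the 9 HFD + eRapa mice 8 lay below the lowest HFD + veh mouse, and the exception was replicate 2. Orm3 rose 6.87-fold in HFD + veh against ND + veh (log2 fold change 2.78, SE 0.624, adjusted p = 0.00391) and fell by 2.71 on the log2 scale in HFD + eRapa against HFD + veh (SE 0.600, adjusted p = 0.00231). Against ND + veh, HFD + eRapa differed by 0.07 (SE 0.579, adjusted p = 0.962), or by 1.31 without ND + veh replicate 4, the mouse at 6.86 CPM. Neither Orm1 nor Orm2 passed the test in HFD + eRapa against HFD + veh, and the difference between the 3 genes in that comparison was not tested.

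**Figure D3:**
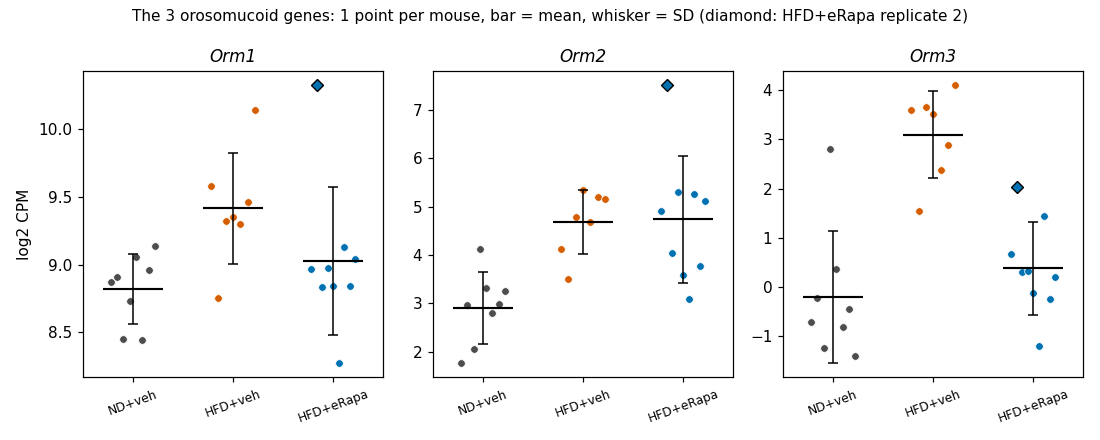
Log2 CPM (y axis) of the 3 orosomucoid genes in every mouse of the 3 groups, with 1 point per mouse, the mean as a bar and the SD as a whisker. Orm3 lay at 2.82 to 17.2 CPM in HFD+veh, a range that ND+veh replicate 4 and HFD+eRapa replicate 2 also reached. The Orm2 medians of HFD+veh and HFD+eRapa were 27.4 and 29.9 CPM, the latter 23.1 without HFD+eRapa replicate 2.

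Lcn2 encodes lipocalin 2, which binds bacterial siderophores and so withholds iron. It ran from 1.25 to 23.4 CPM in ND + veh (median 4.63), from 10.4 to 103 in HFD + veh (median 55.7) and from 15.9 to 106 in HFD + eRapa (median 45.3). The highest ND + veh mouse was replicate 4, and the others of that group stayed at or under 7.49 CPM. Lcn2 rose 8.85-fold on the fatty diet (log2 fold change 3.15, SE 0.559, adjusted p = 0.000649), a call kept in all 24 fits with 1 library left out and under all 8 other settings. HFD + eRapa differed from HFD + veh by -0.36 (95% interval -1.40 to 0.69, adjusted p = 0.621). Within HFD + eRapa the 5 mice with the highest Lcn2 (replicates 1, 2, 4, 7 and 9) were the 5 with the highest Orm2. Neutrophils also make lipocalin 2, and the summed CPM of 12 neutrophil genes ran from 2.69 to 55.2 in HFD + veh, from 0.284 to 10.999 in ND + veh and from 0.450 to 20.2 in HFD + eRapa. Their part in the Lcn2 values was not tested.

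Haptoglobin and hemopexin bind free hemoglobin and free heme and carry them to receptors for uptake. Hp ran from 1724 to 3037 CPM in ND + veh (median 2368), from 2937 to 5610 in HFD + veh (median 3551) and from 3596 to 5840 in HFD + eRapa (median 4227). All 9 HFD + eRapa mice lay above all 8 ND + veh mice and above the HFD + veh median, while HFD + veh replicates 3 and 6 lay under the highest ND + veh mouse. Hp rose 1.69-fold on the fatty diet (log2 fold change 0.76, SE 0.157, adjusted p = 0.00216). HFD + eRapa differed from HFD + veh by 0.22 (95% interval -0.10 to 0.53, adjusted p = 0.288).

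Hpx ran from 2570 to 4553 CPM in ND + veh (median 3508), from 4988 to 10524 in HFD + veh (median 6175) and from 2733 to 9911 in HFD + eRapa (median 4207). It was the gene of the 10 whose HFD + veh and ND + veh mice did not overlap, where 2.44% of all genes tested had no overlap, 1.21% as higher and 1.23% as lower. Hpx rose 2.04-fold (log2 fold change 1.03, SE 0.217, adjusted p = 0.00244). In HFD + eRapa 5 of 9 mice lay below the lowest HFD + veh mouse, and replicate 2 was the highest at 9911 CPM. The difference from HFD + veh was -0.53 (95% interval -0.96 to -0.10, adjusted p = 0.0563), and it passed the test at -0.72 without that mouse. Over the 8 other settings it ran from -0.74 to -0.48, and DESeq2 was among those that called it (adjusted p = 0.0430).

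Apcs encodes serum amyloid P component, a pentraxin. It ran from 42.8 to 121 CPM in ND + veh (median 84.6), from 57.7 to 118 in HFD + veh (median 87.2) and from 46.4 to 206 in HFD + eRapa (median 82.4). The ND + veh and HFD + veh ranges largely overlapped, and 8 of the 9 HFD + eRapa mice lay between 46.4 and 111 CPM, with replicate 2 alone at 206. On the fatty diet the log2 fold change was 0.15 (95% interval -0.35 to 0.65, adjusted p = 0.664), and between HFD + eRapa and HFD + veh it was 0.06 (95% interval -0.43 to 0.55, adjusted p = 0.870).

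Seen by mouse, the genes did not peak in the same animals. HFD + eRapa replicate 2 had the highest value of its group for 6 of the 10 genes. Its level over the median of the other 8 mice was 11.1 times for Saa1, 7.94 times for Orm2, 5.99 times for Saa2, 2.68 times for Orm1, 2.57 times for Apcs, 2.41 times for Hpx and 2.21 times for Lcn2, against 1.33 times for Hp, 1.18 times for Saa4 and 0.840 times for Saa3. In HFD + veh, replicate 7 was highest for 6 genes and replicate 2 lowest for 8. In ND + veh, replicate 8 was highest for 5 genes and replicate 1 lowest for 7, and in HFD + eRapa replicate 6 was lowest for 8.

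**Figure D4:**
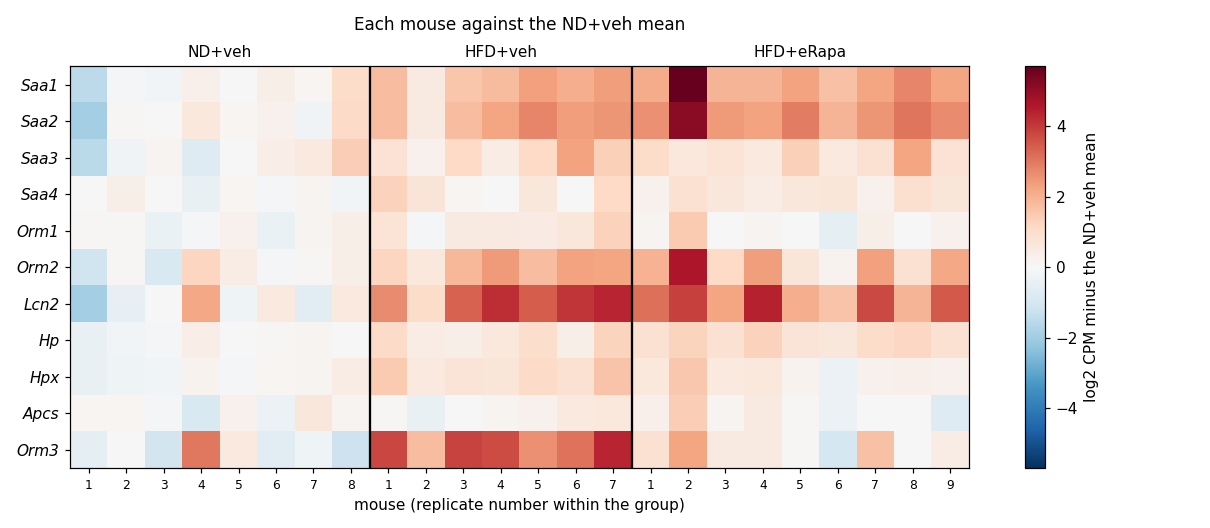
Log2 CPM of the 10 genes and Orm3 in each mouse minus the ND+veh mean of the gene (color scale, log2), with mice in columns by group. HFD+eRapa replicate 2 stands out for Saa1, Saa2 and Orm2, and Lcn2 is raised in most HFD+veh and HFD+eRapa mice, lowest in HFD+veh replicate 2 (10.4 CPM).

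Within groups, the sum of Saa1 and Saa2 was compared with each of the other 8 genes on the log2 CPM scale, which gave 24 relations. After Benjamini-Hochberg adjustment 1 of them passed, with Hpx in ND + veh (Pearson r = 0.868, exact permutation p = 0.00149, adjusted p = 0.0357, and Spearman rho = 0.952, exact permutation p = 0.00114, adjusted p = 0.0274, n = 8). Without ND + veh replicates 1 and 8, the mice farthest from the median of the sum, r was 0.773. In HFD + veh the highest correlation was with Apcs (r = 0.900, exact permutation adjusted p = 0.0833, rho = 0.893, adjusted p = 0.148, n = 7), and r was 0.962 without replicates 2 and 5. In HFD + eRapa the correlation with Orm1 (r = 0.922, exact permutation adjusted p = 0.0876, rho = 0.500, adjusted p = 0.355, n = 9) became -0.27 without replicates 2 and 6 and so rested on those mice. The correlation with Hpx in the same group went from 0.831 to -0.65 in the same way, and that with Orm2 from 0.773 to -0.53. The correlation with Saa3 in that group went the other way, from -0.01 to 0.942. All libraries share 1 batch in the labels.

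Over all 24 libraries, the genes outside the 10 whose rank order was most like that of Saa1 and Saa2 summed were Nubpl (Spearman rho 0.889), C9 (0.868), Fez2 (0.859), Aadat (0.857) and Krcc1 (0.845), out of 7797 genes compared. C9 encodes the last component of the membrane attack complex of complement, and Nubpl a protein for assembly of mitochondrial complex I. The same measure was 0.838 for Hp, 0.755 for Saa3, 0.720 for Lcn2, 0.715 for Orm2, 0.648 for Hpx, 0.590 for Saa4, 0.423 for Orm1 and 0.262 for Apcs. These values are a description over libraries that share groups, and no p is given for them.

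Other positive acute phase genes were described in the same way. Of 21 such genes tested, 8 rose and none fell in HFD + veh against ND + veh, 2 rose and 6 fell in HFD + eRapa against HFD + veh, and 5 rose and none fell in HFD + eRapa against ND + veh (edgeR, adjusted over all genes). The shares called were 38.1%, 38.1% and 23.8%, beside 25.9%, 32% and 13.5% over all genes. Of all genes 16% rose and 9.86% fell in the first comparison, 10.9% and 21.1% in the second, and 6.93% and 6.54% in the third. The medians of log2 fold change were 0.35, 0.02 and 0.07, beside 0.05, -0.04 and -0.03 over all genes. The count of 8 on the fatty diet became 5 without any of ND + veh replicates 1, 2 and 5 or HFD + veh replicates 3, 4 and 6. This list and those below were chosen with earlier results of these data known, so their counts and adjusted p are a description. Both comparisons with HFD + veh share its mice, so opposite changes in them are not read as a reversal. Il1rn, the receptor antagonist that blocks IL-1, rose by 3.56 on the fatty diet (adjusted p = 0.000314) and fell by 2.63 with rapamycin, that is in HFD + eRapa against HFD + veh (adjusted p = 0.00130). Cd14, a coreceptor for lipopolysaccharide that macrophages also carry, rose by 2.08 (adjusted p = 0.0293) and fell by 2.56 (adjusted p = 0.00617). Serpina3n, an inhibitor of serine proteases, rose by 0.66 on the fatty diet (adjusted p = 0.0127) and by 0.70 in HFD + eRapa against ND + veh (adjusted p = 0.00776), with a log2 fold change of 0.03 between the HFD groups. In HFD + eRapa against ND + veh rises were also found for Fgl1, a hepatokine related to fibrinogen (log2 fold change 1.37, adjusted p = 0.000197), Lrg1, a leucine-rich plasma glycoprotein (1.34, adjusted p = 0.000518), and Steap4, a metalloreductase (0.98, adjusted p = 9.45e-05). Crp, the pentraxin that is a main acute phase protein in humans, had log2 fold changes of 0.15, -0.23 and -0.08 in the 3 comparisons and passed in none.

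Of 10 negative acute phase genes 3 fell on the fatty diet and none rose, 3 rose and 1 fell in HFD + eRapa against HFD + veh, and 1 fell in HFD + eRapa against ND + veh, with medians of -0.25, 0.27 and -0.09. The shares called were 30%, 40% and 10%, beside 25.9%, 32% and 13.5% over all genes. Fetub, a fetuin, fell by 0.72 on the fatty diet (adjusted p = 0.0197) and rose by 0.89 with rapamycin (adjusted p = 0.00391). Apoa1, the main protein of high density lipoprotein, fell by 0.68 (adjusted p = 0.0411) and rose by 0.71 (adjusted p = 0.0236). Rbp4, the carrier of retinol, fell by 0.54 on the fatty diet (adjusted p = 0.0224). The count of 3 became 5 without HFD + veh replicate 1. Serpina6, which carries corticosteroids in plasma, fell by 0.93 in HFD + eRapa against HFD + veh (adjusted p = 0.00337) and by 0.85 against ND + veh (adjusted p = 0.00836), where the count of 1 became 2 without ND + veh replicate 4 or HFD + eRapa replicate 2. Alb had log2 fold changes of 0.12, -0.52 and -0.41 and Ttr of -0.11, -0.39 and -0.49, none past the threshold. On either FPKM scale and with 3 libraries left out, both passed as lower in HFD + eRapa against each of the other groups. Without HFD + eRapa replicate 2, Alb passed against HFD + veh (-0.64, adjusted p = 0.0272), and Ttr passed against ND + veh without that mouse or ND + veh replicate 4.

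Of the 8 cytokine genes listed, Il1a and Il1b were tested, and Il6, Tnf, Osm, Lif, Il11 and Il22 fell under the filter, Il22 with 0 counts in all 24 libraries. Il1a rose by 2.19 on the fatty diet (adjusted p = 0.0196) and fell by 2.52 in HFD + eRapa against HFD + veh (adjusted p = 0.00532). Il1b rose by 2.49 (adjusted p = 0.0304) and fell by 2.44 (adjusted p = 0.0212). The summed CPM of the listed cytokines was highest in HFD + veh replicate 6, at 56.8, the library with the highest macrophage sum. Of 9 receptor genes 1 rose and 3 fell on the fatty diet, 2 rose and 2 fell in HFD + eRapa against HFD + veh, and 1 fell in HFD + eRapa against ND + veh. The shares of receptor genes called were 44.4%, 44.4% and 11.1%, beside 25.9%, 32% and 13.5% over all genes. Osmr, the oncostatin M receptor, rose by 1.77 on the fatty diet and was lower by 1.63 in HFD + eRapa against HFD + veh. In the same 2 comparisons Lifr fell by 1.02 and rose by 1.07, and Il1r1 fell by 0.75 and rose by 0.79. Il22ra1, the IL-22 receptor chain, fell by 1.06 on the fatty diet (adjusted p = 0.0101) and by 1.97 in HFD + eRapa against ND + veh (adjusted p = 2.28e-05). Il6ra, the IL-6 receptor, had log2 fold changes of 0.14, 0.09 and 0.23 and passed in no comparison.

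Among 13 kinases and transcription factors of the response 2 rose and 2 fell on the fatty diet, 2 rose and 5 fell in HFD + eRapa against HFD + veh, and 1 rose and 1 fell in HFD + eRapa against ND + veh. These were shares of 30.8%, 53.8% and 15.4%, beside 25.9%, 32% and 13.5% over all genes. Jak1 rose by 0.58 (adjusted p = 0.00548) and Jak2 by 0.46 (adjusted p = 0.0450) on the fatty diet. Cebpb, a C/EBP factor of the response, fell by 0.79 on the fatty diet (adjusted p = 0.0254) and rose by 0.97 in HFD + eRapa against HFD + veh (adjusted p = 0.00558). Stat3, the factor activated by IL-6, had a log2 fold change of 0.12 on the fatty diet (adjusted p = 0.558) and rose by 0.37 in HFD + eRapa against HFD + veh (adjusted p = 0.0380) and by 0.49 against ND + veh (adjusted p = 0.0128). Relb and Nfkb2, subunits of noncanonical NF-kB, fell by 1.76 (adjusted p = 0.0319) and 0.77 (adjusted p = 0.0462) in HFD + eRapa against HFD + veh. Each of these calls was kept in 4 of 8 other settings. Cebpd passed in no comparison. Of 7 feedback inhibitors 1 fell on the fatty diet (14.3%, beside 25.9% of all genes called). In HFD + eRapa against HFD + veh 1 rose and 2 fell (42.9%, beside 32% of all genes), with Socs1 down by 1.85 and Tnfaip3 down by 1.81. Bcl3 fell by 0.81 on the fatty diet and rose by 0.80 with rapamycin, and Socs3, a target and inhibitor of STAT3, had log2 fold changes of -0.50 (adjusted p = 0.177) and 0.69 (adjusted p = 0.0523).

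Of 11 receptors and partners of the proteins 4 rose and 2 fell on the fatty diet. In HFD + eRapa 7 fell against HFD + veh and 1 fell against ND + veh. These were shares of 54.5%, 63.6% and 9.09%, beside 25.9%, 32% and 13.5% over all genes. Fpr2 is a receptor for serum amyloid A on phagocytes, and Fcgr1 is a receptor for pentraxins and IgG. On the fatty diet Fpr2 rose by 3.12, Fcgr1 by 3.36 and Tlr4 by 3.10. In HFD + eRapa against HFD + veh the log2 fold change was -3.78 for Fpr2 and -3.68 for Fcgr1. Lrp2, an endocytic receptor of lipocalin 2, fell by 1.80 on the log2 scale in HFD + eRapa against ND + veh (adjusted p = 0.0102).

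Markers of other liver cells were described by the same counts. Of all genes 16% rose and 9.86% fell on the fatty diet (25.9% called). In HFD + eRapa against HFD + veh 10.9% rose and 21.1% fell (32% called), and against ND + veh 6.93% rose and 6.54% fell (13.5% called). Of 12 macrophage genes 4 rose on the fatty diet and 10 fell in HFD + eRapa against HFD + veh, and none passed between HFD + eRapa and ND + veh, where 3 of these genes, Adgre1, Cd68 and Cd5l, had log2 fold changes of -0.09, -0.47 and 0.05. Of 8 neutrophil genes tested 4 rose on the fatty diet, 2 fell in HFD + eRapa against HFD + veh and 1 rose against ND + veh. S100a8 rose by 4.84 (adjusted p = 0.000809), fell by 2.51 (adjusted p = 0.0126) and was 2.33 above ND + veh (adjusted p = 0.0694), and S100a9 rose by 3.41 on the fatty diet (adjusted p = 0.0180). On the fatty diet 1 of 8 endothelial, 2 of 8 stellate cell and 3 of 3 cholangiocyte genes tested rose. In HFD + eRapa against HFD + veh all 8 endothelial, all 8 stellate cell and 1 of 3 cholangiocyte genes fell. Against ND + veh 4 stellate cell genes fell and 1 cholangiocyte gene rose in HFD + eRapa. Of 10 lymphocyte genes 8 fell under the filter, and of the 2 tested Cd4 did not pass. Ptprc rose by 3.55 on the fatty diet and was lower by 3.49 in HFD + eRapa against HFD + veh. Of 5 erythroid genes 4 rose on the fatty diet, among them Hbb-bs by 5.96, and 3 rose in HFD + eRapa against ND + veh. Of 10 early response genes of cell isolation none passed on the fatty diet, and 2 fell in HFD + eRapa against each of the other groups. Of 8 hepatocyte genes 1 rose (Tdo2, by 0.96) and 1 fell (Cyp2e1, by 1.93) on the fatty diet, and 1 rose and 1 fell with rapamycin. In these bulk samples fewer cells of a type and less RNA per cell cannot be told apart.

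Mouse by mouse, the macrophage sums and the levels of the 10 genes stood as follows. HFD + veh replicates 1 and 2 had nearly the same low macrophage sums (198 and 199) but Hpx levels of 9504 and 4988 CPM, the second highest and the lowest of the group, and replicate 6, with the highest macrophage sum (5886), had 6175 CPM. HFD + eRapa replicate 2 had the highest macrophage sum of its group (1230) as well as the highest Saa1. The part of other cells in the levels of the 10 genes was not tested.

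**Figure D5:**
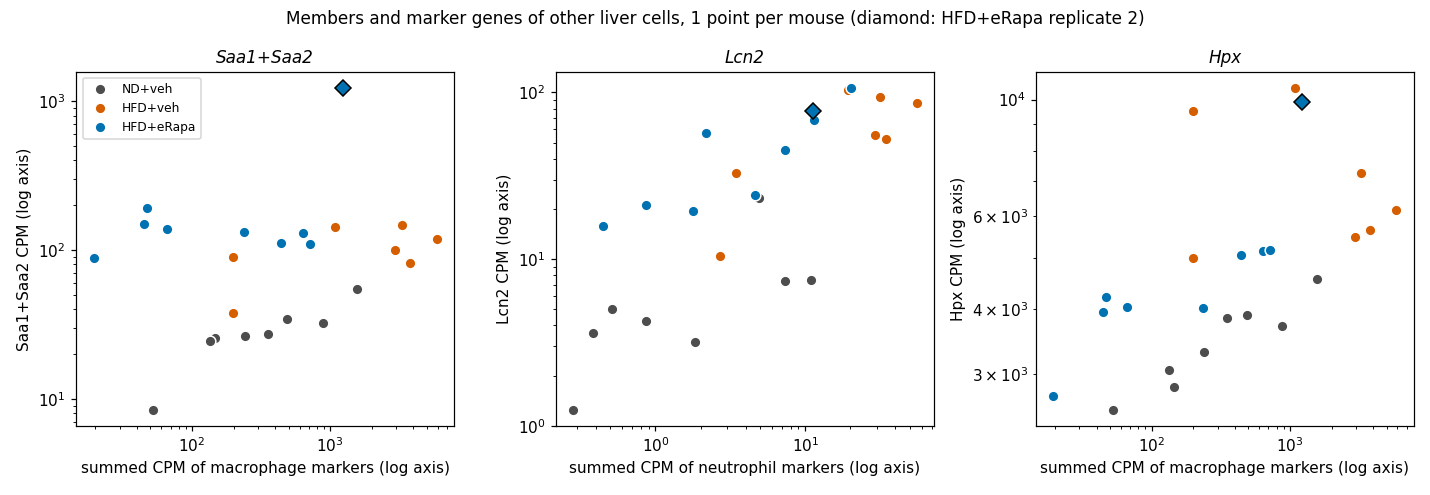
Saa1 and Saa2 summed and Hpx against the summed CPM of 12 macrophage markers, and Lcn2 against the summed CPM of neutrophil markers, with 1 point per mouse on log axes and colors for the 3 groups. Macrophage sums ran from 52.4 to 1569 CPM in ND+veh, from 198 to 5886 in HFD+veh and from 19.4 to 1230 in HFD+eRapa, and the diamond, HFD+eRapa replicate 2, has both the highest macrophage sum and the highest Saa1 and Saa2 of its group.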

How the data were processed

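Hepatocyte mRNA of 24 mice was analysed from a table of raw read counts per gene and a table of FPKM values, both deposited by the authors. Per the labels and the study's methods, the authors aligned reads to mm10 (Gencode vM23) with STAR in 2 passes, sorted them with SAMtools 1.1.0, counted reads per gene with HTSeq 0.11.2 (deposited as counts) and computed FPKM with Cufflinks. The strand setting and the handling of reads that match several genes are not given in the sources used here, so reads of close copies and of overlapping or antisense genes may be shared. Genes were filtered with filterByExpr, scaled by TMM and fitted in edgeR 4.0.16 (R 4.3.3) with 1 quasi-likelihood model of 3 groups, and a gene was called at a Benjamini-Hochberg adjusted p under 0.05 over 13847 genes. CPM are counts scaled by the TMM library size, log2 CPM carry a prior count of 2, and FPKM served for levels between genes. Intervals are 95%. Each label names a separate mouse, all in batch 1, and no library repeated another (chi-square per degree of freedom at least 12.7 between libraries of a group). Alternatives were DESeq2 1.42.0, its size factors in edgeR, no filter on low counts, only the groups compared, a replicate block, limma 3.58.1 on log2(FPKM + 1) and log2(FPKM + 0.1), each library left out, and 3 libraries left out together.

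The 10 genes and the lists beside them were chosen with earlier results of these data known. Named genes were every member, up to 3 called genes of each list and comparison with the largest fold change, and Orm3, Serpina3n, Crp, Alb, Ttr, Il6ra, Stat3, Socs3, Cebpb, Cebpd, Il1r1, S100a8 and S100a9. For likeness, the 5 genes with the highest Spearman rho were named among those with a mean log2 CPM of at least 3. Gene positions are from GENCODE M21 (55154 of the gene identifiers matched) and promoters from RefSeq GRCm38.p6. The tests were also run on simulated counts drawn with the means and spread of these data.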

Additional observations from a re-analysis of the deposited data

Results flagged for a closer look

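Libraries far from the rest of their group were sought in 45 groups of values, and 13 were found, where chance gives about 1 in 20 groups. Several of the values come from the same mouse and from genes that share reads, so they are not separate observations. HFD + eRapa replicate 2 lay above the other 8 mice of its group on the log2 CPM scale for Saa1 (9.90, others 5.91 to 7.003), Saa2 (8.07, others 4.84 to 5.96), their sum (10.3, others 6.47 to 7.57), Orm1 (10.3, others 8.27 to 9.13), Orm2 (7.52, others 3.09 to 5.29), the 3 Orm genes summed (10.5, others 8.31 to 9.23) and Hpx (13.3, others 11.4 to 12.3). ND + veh replicate 1 lay below its group for Saa1 (2.74, others 4.09 to 5.28), Saa2 (0.977, others 2.73 to 4.01) and their sum (3.10, others 4.61 to 5.78). ND + veh replicate 4 lay above its group for Orm3 (2.80, others -1.40 to 0.37), and HFD + eRapa replicate 8 for Saa3 (3.32, others 1.62 to 2.45). HFD + veh replicate 3 had the smallest library of its group, 19.8 in units of 1e+06 counts against 21.3 to 22.03 in the others.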

How the results depend on the processing

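Of 10 genes, 9 passed the test in HFD + veh against ND + veh, 5 with no filter on low counts, and 5 to 9 with 1 library left out. In HFD + eRapa against HFD + veh the count was 1, and it was 2 with DESeq2 (Saa2 higher and Hpx lower), 0 with no filter, 0 in a fit of only the groups compared and 0 to 2 with 1 library left out. With 3 libraries left out together (ND + veh replicate 4, HFD + veh replicate 6 and HFD + eRapa replicate 2, a setting chosen after seeing the data) it was 2, both lower. The sum of Saa1 and Saa2 kept its call on the fatty diet under every setting run, and in HFD + eRapa against HFD + veh it ran from 0.35 to 1.41 with 1 library left out, passing the test in some of these fits (adjusted p from 0.0402 to 0.340). As a description its log2 fold change in HFD + eRapa against ND + veh was 2.11 with DESeq2. Of the other positive acute phase genes 8 passed on the fatty diet, 5 with no filter and 5 to 9 with 1 library left out. Of the negative genes 3 passed there, 1 in a fit of only the groups compared, 5 on either FPKM scale and 2 to 5 with 1 library left out. In HFD + eRapa against ND + veh 1 negative gene passed, 3 on either FPKM scale, 3 without the 3 libraries and 1 to 2 with 1 library left out.

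Directions turned in results that had not passed the test. In HFD + veh against ND + veh, without the 3 libraries, Apcs was at -0.042, Crp at -0.035, Il6ra at -0.059 and Alb at -0.0059, and with 1 library left out Alb ran from -0.026 to 0.19 and Il6ra from -0.0016 to 0.30. In HFD + eRapa against HFD + veh the values on log2(FPKM + 1) and log2(FPKM + 0.1) were -0.023 and -0.030 for Orm2, -0.12 and -0.12 for Apcs, -0.076 and -0.090 for Il6ra and -0.028 and -0.028 for Serpina3n. Without the 3 libraries they were 0.24 for Saa3, -0.097 for Orm2, -0.093 for Apcs and -0.14 for Serpina3n, and Saa4 was at 0.0026 with no filter. With 1 library left out the ranges were -0.36 to 0.20 for Saa3, -0.11 to 0.10 for Saa4, -0.21 to 0.76 for Orm2, -0.18 to 0.16 for Apcs and -0.074 to 0.17 for Serpina3n. In HFD + eRapa against ND + veh Il1r1 was at -0.056 and -0.068 on the FPKM scales and -0.046 without the 3 libraries, and with 1 library left out it ran from -0.048 to 0.14 and Orm3 from -0.26 to 1.31.

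The labels share replicate numbers between groups, and samples with the same number did not deviate together in every pair (correlations over 0.1 in 5 of 7, 2 of 7 and 2 of 8 pairs). Samples with different numbers were not compared, so these values cannot tell whether the numbers pair mice. With a replicate block the count of genes was 8 in HFD + veh against ND + veh and 0 in HFD + eRapa against HFD + veh, 5 other positive genes passed in the latter, the sum of Saa1 and Saa2 was at 2.06 (adjusted p = 0.0161) and 0.65 (adjusted p = 0.371), and Il1r1 was at -0.0061 in HFD + eRapa against ND + veh. Of the genes named from the lists, calls were lost without some library in 21 of 37 on the fatty diet, 14 of 39 in HFD + eRapa against HFD + veh and 7 of 19 in HFD + eRapa against ND + veh, and under some other alternative in 23, 23 and 10 of them, and none of these turned in direction. The cause of these changes was not tested, beyond fewer genes or samples entering a fit. Saa2, Saa3, Lcn2 and Orm3 lay under 2 CPM in some libraries, where counts limit the precision.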
